A study of Sus scrofa with 3 samples.

Results

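miR-199a, miR-199b and miR-214 were described in pig liver from the 5 mature names under which they are counted: ssc-miR-199a-5p, ssc-miR-199b-5p, ssc-miR-199a-3p, ssc-miR-199b-3p and ssc-miR-214, written below without the species prefix. They were chosen by name, and they are 5 of 411 mature names in the files. The data are small RNA counts of liver from males of 90 days after birth. The Enshi black pig, a domestic breed of China, the Large White pig, a commercial breed of Europe, and the Chinese wild boar each have 1 library. The labels speak of 3 male pigs and do not say whether a library holds 1 animal or a pool. No treatment or genetic change is given for any group. Since each breed has a single library, differences between breeds could not be checked on replicates and no p-value was computed. Every interval is an exact 95% interval and covers counting error only.

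A microRNA (miRNA) is a short RNA cut from a hairpin precursor, whose 5′ side (5p) and 3′ side (3p) can each give a mature strand that represses matching messenger RNAs. In mammals, the miR-199 hairpins lie in introns of dynamin genes on the opposite strand, and miR-214 and 1 copy of miR-199a are cut from a shared noncoding transcript opposite DNM3. These miRNAs are typical of mesenchymal cells. In liver they are best known from the hepatic stellate cell, the vitamin A storing cell that turns into a collagen-producing myofibroblast in fibrosis. miR-199a-3p is also known as an abundant miRNA of healthy liver that is reduced in hepatocellular carcinoma.

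The 5 names come from 4 precursors and fill 7 rows of each file. In the RefSeq gene table of Sscrofa 11.1, which is not the build of the counts and was used for names and neighbours only, MIR199A-1 and MIR214 both lie within DNM3 with 0 listed genes between them. MIR199A-2 lies within DNM2 and MIR199B within DNM1. The dynamins encoded by these genes pinch membrane vesicles off the cell surface. In the pig names it is therefore ssc-mir-199a-1 that neighbours ssc-mir-214. No mature sequences are shown here.

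The libraries were of similar depth, at 7739853 deposited reads for Enshi black, 7350179 for Large White and 7837309 for wild boar. In all of them the hepatocyte miRNA miR-122 had the highest count. Levels are given as CPM, reads per 1000000 of the library after scaling by trimmed mean of M-values (TMM), a factor set so that the bulk of miRNAs comes out level between libraries. A count of 0 would have allowed up to 0.323, 0.529 and 0.356 CPM in the same order, and all 5 names lay far above that. The label of stellate cell miRNAs cannot be checked in whole liver, where fewer cells of a type and less RNA per cell cannot be told apart.

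miR-199a-5p, which is known to repress caveolin-1 in fibroblasts, was the most abundant of the 5 names in each library. It stood at 16638 CPM in Enshi black (interval 16555 to 16721), 14053 CPM in wild boar (13973 to 14133) and 12093 CPM in Large White (12003 to 12184). It was the 10th, 15th and 18th most abundant of 405 miRNAs in the same order. The Enshi black library was highest, and the 3 intervals did not overlap.

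miR-199b-5p, which shares the seed region of miR-199a-5p and so many predicted targets, was much scarcer. It stood at 1109 CPM in wild boar (interval 1087 to 1132), 1040 CPM in Enshi black (1020 to 1061) and 748 CPM in Large White (726 to 771). Here the wild boar library was highest and Large White again lowest.

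The 3p strands of miR-199a and miR-199b have the same sequence, known as a repressor of mTOR and MET, so their reads cannot be assigned to a precursor. Counted under both names together, these reads came to 10285 CPM in Enshi black (interval 10220 to 10351), 10267 CPM in Large White (10184 to 10351) and 9499 CPM in wild boar (9434 to 9565). Enshi black and Large White could not be told apart by counting error, and wild boar was lowest. Under the separate names the level was 6861, 6850 and 6338 CPM for miR-199a-3p and 3424, 3417 and 3162 CPM for miR-199b-3p, in the order Enshi black, Large White, wild boar.

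miR-214, given without an arm in the files, was the scarcest of the 5 names in each library. It stood at 576 CPM in Enshi black (interval 561 to 592), 544 CPM in wild boar (529 to 560) and 475 CPM in Large White (457 to 493). Enshi black was highest and Large White lowest. The intervals of Enshi black and wild boar did not overlap, but came within 1 CPM of each other, so the order of these libraries rests on a small difference.

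**Figure D1:**
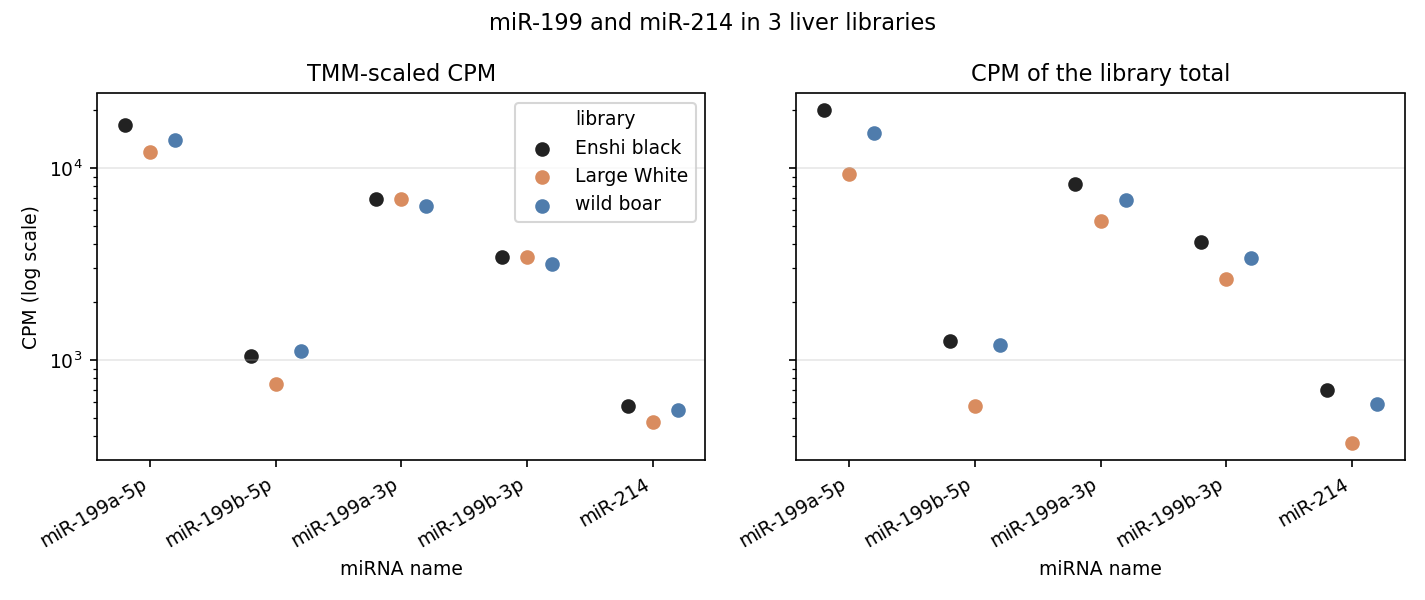
Level of each miRNA name (x axis) in CPM on a log axis, after TMM scaling (left) and as a share of the library total (right), with 1 point per library. On the left the 3p names differ little between libraries and the 5p names are lowest in Large White, and on the right all 5 names are lowest in Large White.

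The split of the 3p reads between names follows from the counting. The 3 rows of 3p reads, 1 for each miR-199 precursor, were almost equal in every library, with the smallest within 0.409% to 0.467% of the largest. The count under miR-199a-3p was accordingly 2.004 to 2.005 times that under miR-199b-3p, as when each read is divided equally over 3 precursors. A ratio of these names thus carries no information on the use of the miR-199a and miR-199b genes. The row of ssc-mir-199a-1 exceeded that of ssc-mir-199a-2 by 130.5, 91 and 121.5 reads on the 3p side and by 25, 12 and 31 reads on the 5p side (Enshi black, Large White, wild boar). Those are 0.137% to 0.156% of the 3p reads and 0.0162% to 0.0262% of the miR-199a-5p reads, so the 2 miR-199a genes were not told apart by these counts. The miR-214 counts were whole numbers, with no sign of shared reads.

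Because the 5p strands of miR-199a and miR-199b differ in sequence, their reads show the split between both genes. miR-199b gave 5.88% of the miR-199 5p reads in Enshi black (exact Clopper-Pearson interval 5.77 to 6.00), 5.82% in Large White (5.66 to 6.00) and 7.31% in wild boar (7.17 to 7.46). The Enshi black and Large White intervals overlapped, and the wild boar share was 1.26 times that of Large White. These shares do not depend on how libraries are scaled. Fractions in the 5p counts show that a part of these reads, too, was shared between names.

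Between the Enshi black and Large White libraries, the 5p names and miR-214 were higher in Enshi black and the 3p names were level after TMM scaling. The ratio was 1.38 for miR-199a-5p (interval 1.36 to 1.39), 1.39 for miR-199b-5p (1.34 to 1.44), 1.21 for miR-214 (1.16 to 1.27) and 1.002 for the 3p reads of both names (0.992 to 1.01). Calls of a difference needed a ratio of 2-fold or more in either direction and an interval without 1. By that rule 0 of the 5 names were called, against 13.0% of the 208 miRNAs with a mean of at least 10 CPM. Members had a median log2 ratio of 0.28, and all 208 miRNAs one of −0.04.

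On library totals without TMM, miR-199a-5p and miR-199b-5p passed 2-fold in the same pair, at 2.14 and 2.16. The ratio was then 1.89 for miR-214 and 1.56 for the 3p reads. That is 2 of 5 names called higher, where 27.4% of the 208 miRNAs were. The step from totals to TMM moved all log2 ratios of Enshi black over Large White by −0.64, and the median of all miRNAs was 0.60 on totals. Relative to that median, miR-199a-5p lay 0.50 and miR-199b-5p 0.52 higher on the log2 scale, miR-214 0.32 higher and the 3p names 0.04 higher, whichever scaling is used. Sorted by ratio, miR-199b-5p was 41st and miR-199a-5p 44th from the Enshi black end of the 208, miR-214 66th, and the 3p names 97th and 98th. The 5p names thus lay toward the Enshi black end, without being among the outermost miRNAs.

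Between wild boar and Large White, miR-199b-5p differed most. Its ratio was 1.48 in favour of wild boar (interval 1.43 to 1.54), while that of miR-199a-5p was 1.16 (1.15 to 1.17) and that of miR-214 1.15 (1.09 to 1.20). The 3p reads stood at 0.925 (0.915 to 0.935), below 1 after TMM scaling, but at 1.29 on library totals, so their direction depends on the scaling, which moved all log2 ratios of this pair by −0.48. After TMM 0 of 5 names were called, against 25.0% of the 208 miRNAs. On library totals miR-199b-5p alone was called higher, at 2.07, where 21.6% of miRNAs were. Relative to the median miRNA, miR-199b-5p lay 0.59 higher on the log2 scale, miR-199a-5p 0.23 and miR-214 0.21 higher, and the 3p names 0.09 lower (−0.09).

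Between Enshi black and wild boar, no name was further apart than miR-199a-5p. It had a ratio of 1.18 (interval 1.18 to 1.19), the 3p reads 1.08 (1.07 to 1.09) and miR-214 1.06 (1.02 to 1.10), all toward Enshi black. miR-199b-5p stood at 0.938 (0.912 to 0.965) after TMM and at 1.05 on library totals, so its direction also depends on the scaling, a shift of −0.16. Of the 5 names 0 were called on either scale, against 12.5% of the 208 miRNAs after TMM and 10.6% on library totals.

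**Figure D2:**
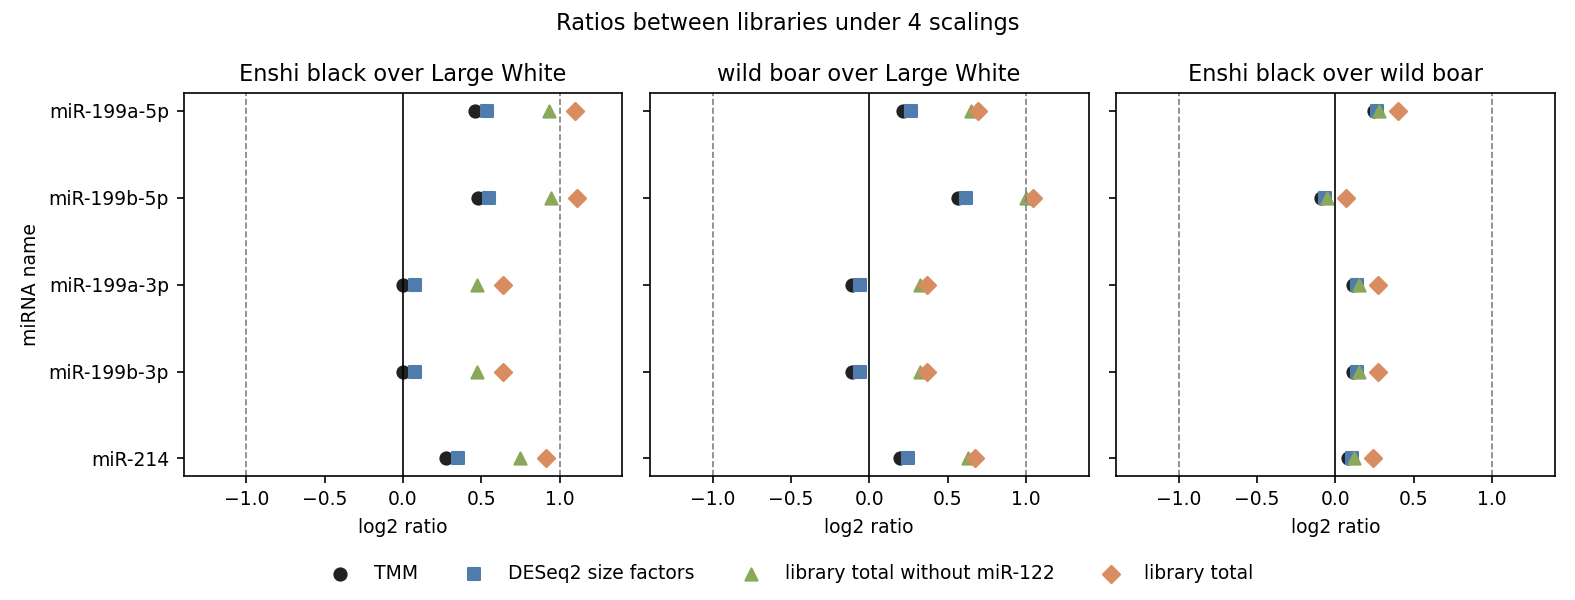
The log2 ratio of each miRNA name (y axis) for the 3 pairs of libraries, with 1 marker per scaling and dashed lines at 2-fold. TMM and DESeq2 size factors leave all names within 2-fold, and library totals put miR-199a-5p and miR-199b-5p past 2-fold in Enshi black over Large White and miR-199b-5p in wild boar over Large White.

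**Figure D3:**
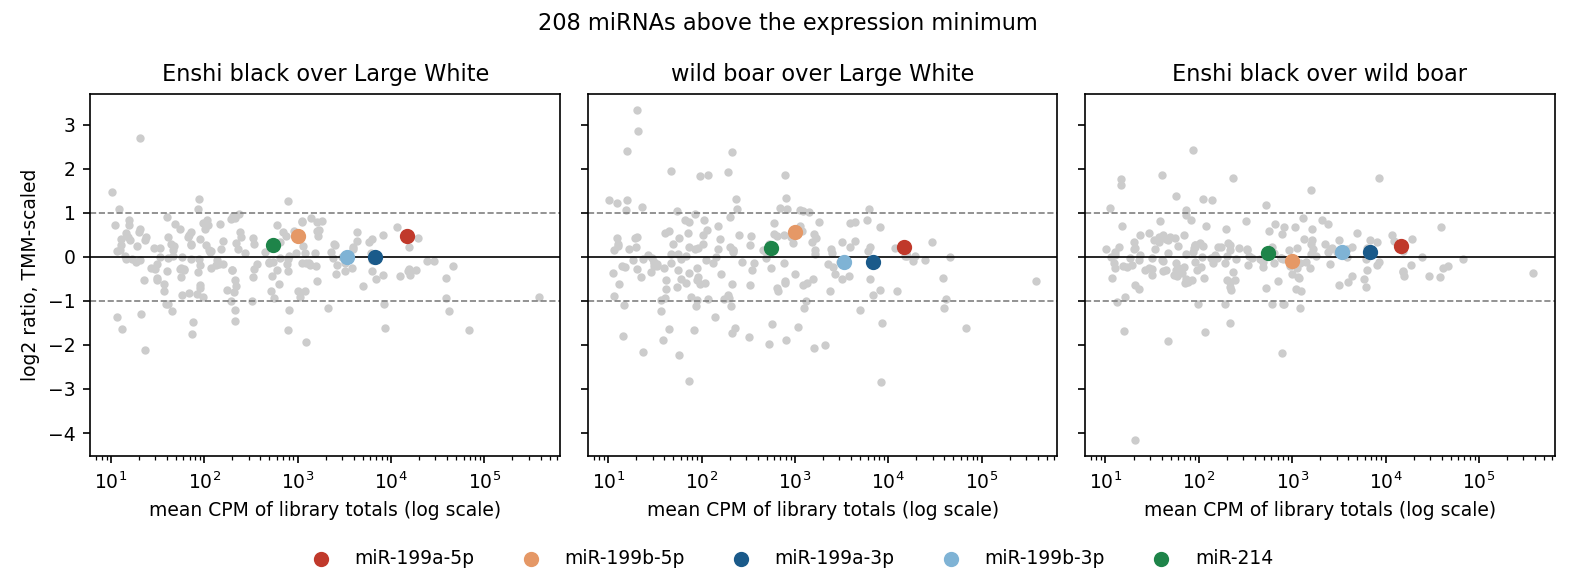
TMM-scaled log2 ratio (y axis) against mean CPM of the library totals (x axis, log scale) for 208 miRNAs in the 3 pairs, with the 5 names in colour, the others in grey and dashed lines at 2-fold. The 5 names lie inside the 2-fold lines in each pair, and miR-199a-5p is among the more abundant miRNAs.

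The 5p and 3p strands of miR-199 were not used in the same proportion in the 3 libraries. The 5p strand gave 63.2% of the miR-199 reads in Enshi black (exact Clopper-Pearson interval 63.0 to 63.4), 61.5% in wild boar (61.3 to 61.7) and 55.6% in Large White (55.3 to 55.8). That is 1.72, 1.596 and 1.25 reads of 5p per read of 3p, and the intervals did not overlap. The lower 5p share of Large White is the same difference that the 5p and 3p ratios above show, stated without any scaling.

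The 5p share of miR-199 spanned 7.65 percentage points over the 3 libraries. The median span of 54 other arm pairs, whose arms had 100 reads or more in sum in every library, was 3.08 points, and 15 of them spanned more. The 5p:3p ratio of miR-199 differed by 0.46 on the log2 scale between Enshi black and Large White. Of the 54 others, 26 differed by more, and the median size was 0.40. In wild boar over Large White the miR-199 shift was 0.35, and 34 of the 54 others had a larger one. The shift in Enshi black over wild boar was 0.11, with 43 of 54 larger. Among the 29 other pairs with at least 100 reads on the scarcer arm too, 15, 16 and 22 had a larger shift in the same order of pairs, and 10 had a wider span of the 5p share. Arm use of miR-199 therefore differed between libraries beyond counting error, but a higher 5p:3p ratio than in Large White was not particular to it. Among the 29 pairs, 20 were higher and 9 lower in Enshi black over Large White (median log2 change 0.28). In wild boar over Large White, 18 were higher and 11 lower (median 0.24). Among all 54 others, 30 were higher and 24 lower in the former pair, and 26 and 28 in the latter. The span of miR-199 in percentage points was above the median of the other pairs. Its log2 shifts were exceeded by 26, 34 and 43 of the 54, so on that scale they were not unusual.

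**Figure D4:**
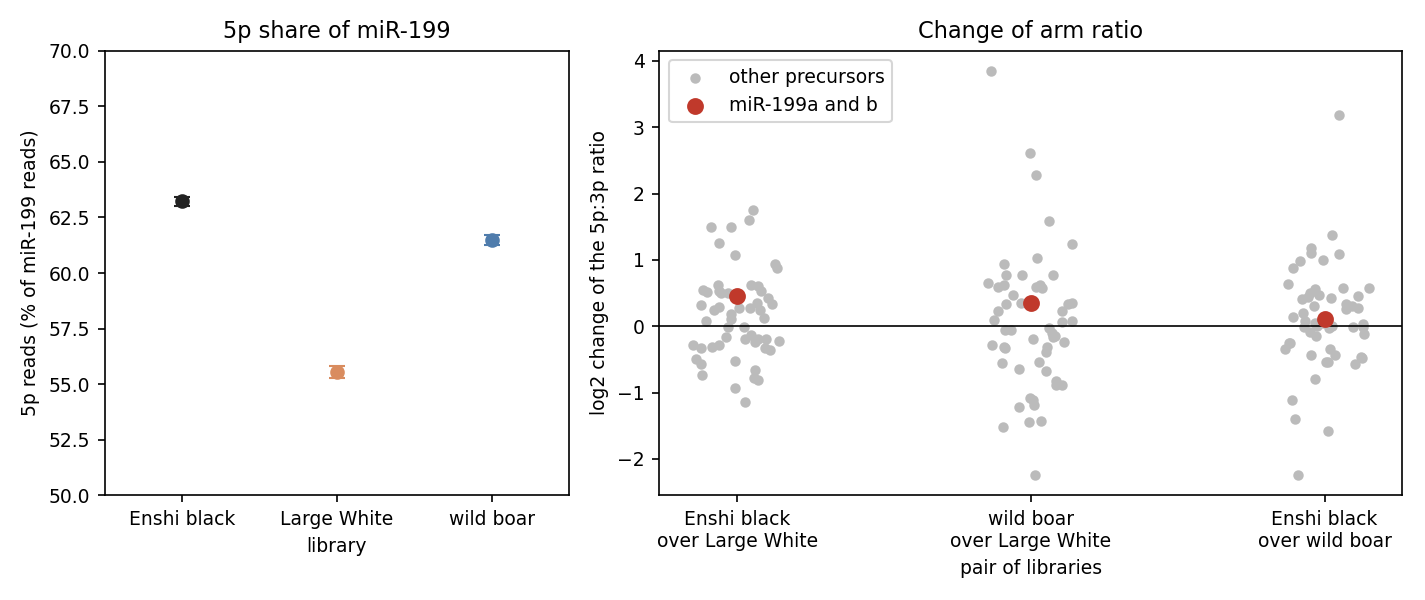
Left, the share of miR-199 reads on the 5p strand in each library with exact 95% intervals, on an axis from 50 to 70%. Right, the log2 change of the 5p:3p ratio in each pair of libraries for miR-199 (red) and 54 other arm pairs (grey), where miR-199 lies within the spread of the others.

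The reads of miR-214 were set against those of miR-199. There were 2.06 reads of miR-214 per 100 miR-199 reads in Enshi black (interval 2.005 to 2.12), 2.06 in Large White (1.98 to 2.14) and 2.21 in wild boar (2.14 to 2.27). Per 100 reads of miR-199a-5p alone there were 3.46 (3.37 to 3.56), 3.93 (3.78 to 4.08) and 3.87 (3.76 to 3.99). By the first measure Enshi black and Large White were level and the wild boar interval lay above both, and by the second Large White and wild boar were, with Enshi black lower. miR-214 was thus far scarcer than miR-199a-5p, whose counts also take in the DNM2 copy. Whether adaptor ligation favours 1 of these miRNAs was not tested.

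The reads of the 5 names were also set against 6 other miRNAs of the same library. Their reads made up 3.43% of the Enshi black, 1.82% of the Large White and 2.72% of the wild boar library. There were 1057 such reads per 100 reads of miR-145-5p, a smooth muscle and fibroblast miRNA, in Enshi black (interval 1043 to 1070), 1047 in Large White (1028 to 1066) and 1047 in wild boar (1032 to 1062). These 3 intervals overlapped. Per 100 reads of miR-143-3p, which is cut from the same transcript as miR-145, there were 127, 141 and 148 reads, and per 100 reads of the endothelial miR-126-3p 199.9, 264 and 247.

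The proportion to miR-122 differed more between Large White and the other libraries than those to miR-145-5p, miR-143-3p and miR-126-3p. Per 100 miR-122 reads there were 10.03 reads of the 5 names in Enshi black, 4.40 in Large White and 6.88 in wild boar, which makes Enshi black 2.28 and wild boar 1.56 times Large White. Per 100 reads of miR-29a, a repressor of collagen genes, there were 121, 93.9 and 106 reads. Per 100 reads of miR-21, which is linked to growth and fibrosis, there were 71.5, 42.3 and 102 reads, so that against miR-21 the wild boar library was highest.

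**Figure D5:**
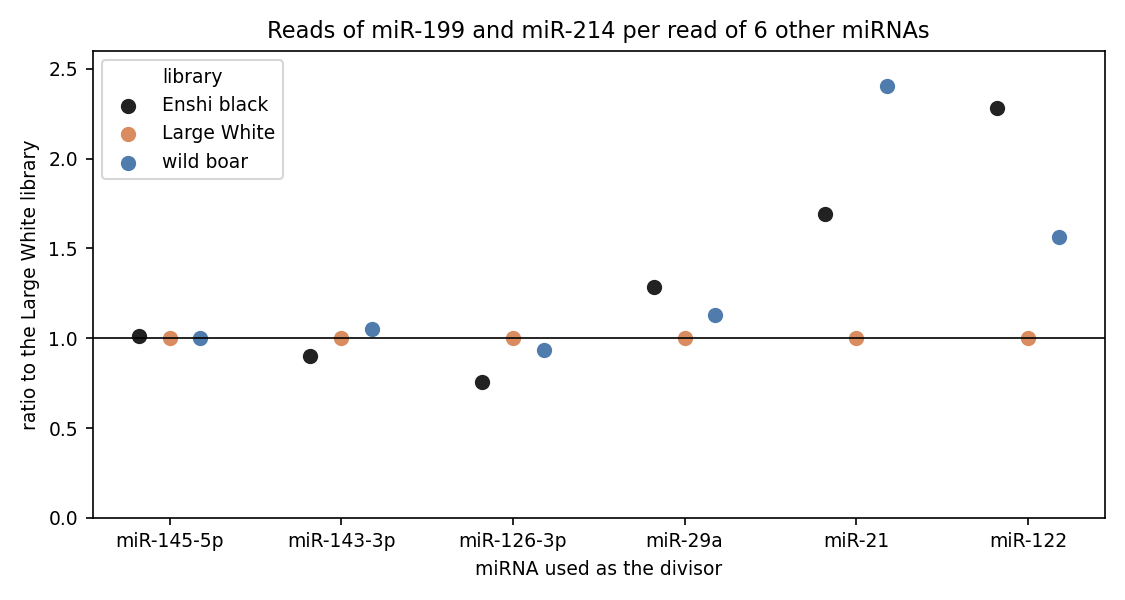
Reads of the 5 names divided by the reads of 6 other miRNAs (x axis), each as a ratio to the Large White library (y axis, linear from 0), with 1 point per library. The points lie together at 1 for miR-145-5p and furthest apart for miR-21, where wild boar is at 2.40, and miR-122, where Enshi black is at 2.28.

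By likeness, miR-145-5p was the miRNA whose 3 levels lay nearest to those of the 5 names together. This restates the even proportion above from the same counts and is no separate result. Likeness was the Euclidean distance between log2 CPM values centred on their mean over the 3 libraries, among 125 other miRNAs with a mean of at least 100 CPM. The distance was 0.011 for miR-145-5p, 0.037 for miR-532-5p, 0.044 for miR-30a-5p, 0.062 for let-7d-5p and 0.13 for miR-18a. With 3 libraries and 125 candidates a close match is easily found, so the order is a description only.

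The other miRNAs of smooth muscle and fibroblasts on the list used here did not all go with the 5 names. In Enshi black over Large White the TMM-scaled log2 ratio was 0.43 for miR-143-3p, 0.24 for miR-143-5p, 0.26 for miR-145-5p, −0.29 for miR-145-3p, −0.31 for miR-152 and 1.08 for miR-490. On library totals miR-145-3p and miR-152 turned to 0.35 and 0.32, and miR-143-3p passed 2-fold at 1.07. With miR-490, 2 of the 6 were called higher on that scale, where 27.4% of all 208 miRNAs were. After TMM miR-490 was the 1 of 6 called in this pair, where 13.0% of all 208 miRNAs were called. It was also the 1 called in wild boar over Large White (1.22), where 25.0% were. miR-490 rests on few reads, at 13.5 CPM in Enshi black, 6.35 CPM in Large White and 14.8 CPM in wild boar. It passed the minimum mean of 10 CPM only through the libraries where it was higher. Its calls over Large White were thus favoured by the filter and carry no weight of their own. miR-145-3p had −0.93 in wild boar over Large White, against 0.10 for miR-145-5p. Of the 6, 0 were called in Enshi black over wild boar, with log2 ratios from −0.64 for miR-152 to 0.64 for miR-145-3p. The list's medians were 0.25, 0.06 and 0.28, and those of the 5 names 0.28, 0.20 and 0.11 (Enshi black over Large White, wild boar over Large White, Enshi black over wild boar).

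Of 12 further miRNAs linked to fibrosis and stellate cells, 1 was called higher and 1 lower in Enshi black over Large White, where 13.0% of all 208 miRNAs were called. miR-15b, of the proapoptotic miR-15 family, was higher at 1.27, and the collagen repressor miR-29b lower at −1.16, which was −0.52 and not called on library totals. The remaining log2 ratios were 0.88 for miR-222, 0.73 for miR-27a, 0.57 for miR-16, 0.36 for miR-27b-3p, 0.18 for miR-221-3p, −0.04 for miR-29c, −0.07 for miR-146a-5p, −0.09 for miR-29a, −0.43 for miR-34a and −0.48 for miR-21. The last 5 turned above 0 on library totals. miR-222, miR-27a and miR-16 then passed 2-fold. With miR-15b, 4 of the 12 were called higher on library totals, where 27.4% of all 208 miRNAs were. In wild boar over Large White, miR-15b (1.33) and miR-222 (1.01) were called higher and miR-29b (−1.996), miR-146a-5p (−1.36) and miR-21 (−1.17) lower, beside 25.0% of all 208. On library totals miR-221-3p and miR-27b-3p were also called higher there, making 4 of 12, where 21.6% of all 208 miRNAs were called higher. miR-146a-5p and miR-21 were not called on that scale. In Enshi black over wild boar miR-146a-5p alone was called, at 1.298, where 12.5% of all 208 miRNAs were. The 5 names, with ratios under 1.5-fold after TMM, lay inside the range of this list in each pair.

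Markers of other liver cells differed between the same libraries, and their part in the levels of the 5 names was not tested. All 6 hepatocyte miRNAs were lower in Enshi black than in Large White after TMM. miR-101 (−1.67), miR-885-5p (−1.49) and miR-192 (−1.23) were called, and miR-122 had −0.91. Of all 208 miRNAs 13.0% were called, with 21 called lower. On library totals 5 of the 6 hepatocyte miRNAs were lower, and miR-148a-3p was at 0.34. miR-101 alone was called there, where 6 of all 208 miRNAs were called lower. The 6 hepatocyte miRNAs had a summed share of 48.1% of reads in Enshi black, 62.8% in Large White and 54.2% in wild boar. That is the reverse of the order of the summed share of the 5 names, at 3.43%, 1.82% and 2.72%. Shares of a total depend on each other, and a link between these orders was not tested. All 6 endothelial miRNAs were higher in Enshi black than in Large White, with 0 called after TMM, beside 13.0% of all 208 miRNAs. On library totals all but miR-24-3p were called, where 27.4% of all 208 miRNAs were called higher. After TMM miR-126-3p had 0.68 and miR-24-3p 0.23. The summed endothelial share was 3.04%, 1.28% and 2.16% in the order Enshi black, Large White, wild boar, the same order as the 5 names. The median log2 ratio of all 208 miRNAs on library totals gave that order too. It was 0.60 in Enshi black over Large White, 0.46 in wild boar over Large White and 0.15 in Enshi black over wild boar. This order was thus not particular to endothelial miRNAs. No listed marker found in the files was at 0 in any library.

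Blood cell and muscle markers did not follow the order of the 5 names. Shares here are of library totals, and CPM are after TMM. The summed share of the 5 leucocyte miRNAs found was 1.31%, 1.61% and 0.393% in the order Enshi black, Large White, wild boar. miR-142-3p was at 8054, 16873 and 2346 CPM and miR-142-5p at 1777, 2613 and 618 CPM. After TMM 1 of the 5, miR-150 (314, 278 and 91.0 CPM), was higher in Enshi black than in Large White, and 4 were on library totals. The 4 red cell miRNAs took 0.513%, 0.419% and 0.342% of reads. miR-451 was at 3318, 3641 and 2556 CPM and miR-144 at 665, 1536 and 413 CPM. After TMM 1 of the 4, miR-363 (156, 94.7 and 63.1 CPM), was higher in Enshi black than in Large White. On library totals 3 were, among them miR-451 at 1.42 times Large White. The 5 striated muscle miRNAs took 0.0276%, 0.0305% and 0.0190%, with miR-499-5p at 152, 257 and 131 CPM and miR-1 at 56.7, 103 and 21.9 CPM. miR-223, a myeloid marker on the leucocyte list, was not analysed here.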

How the data were processed

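Per the submitters' processing notes, the genome build was Sscrofa 10.2. Which aligner, counter and miRNA annotation the authors used is not given in the sources used here. Deposited values are expected counts per pair of mature miRNA and precursor, per the file headers, with fractions where reads match several precursors. RPM are held too, which the authors' files give as the count per 1000000 of all rows. RPM values were not used. Whole-number counts had been assumed, so counts were rounded after summing over precursors. 6 names that repeat the reads of another name were left out, which left 405 miRNAs. TMM factors came from edgeR 4.0.16 in R 4.3.3 and were 1.20 (Enshi black), 0.772 (Large White) and 1.08 (wild boar). The filter on a mean of 10 CPM used library totals. Ratios have exact conditional-binomial, levels exact Poisson and shares exact Clopper-Pearson 95% intervals, from scipy 1.17.1. Reads carry no molecular identifiers, so these cover counting error only. The computation was tested on simulated data. All 5 names were described in every library. From the smooth muscle and fibroblast list and the fibrosis list every member above the minimum was named, and from each other list the 2 most abundant, plus those needed to explain a count. Likeness added 0.5 to each count. Alternatives were library totals, totals without miR-122, DESeq2 1.42.0 size factors, thinned libraries, other minimums, a 4-fold threshold and another count of the 3p reads. Members, lists and tests were chosen with earlier results of these data known.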

Additional observations from a re-analysis of the deposited data

How the results depend on the processing

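On library totals, log2 ratios that passed 2-fold were 1.10 for miR-199a-5p and 1.11 for miR-199b-5p in Enshi black over Large White, and 1.05 for miR-199b-5p in wild boar over Large White (1.002 on totals without miR-122). The direction turned for miR-199b-5p in Enshi black over wild boar (0.065 on totals). For the 3p reads in wild boar over Large White, it turned to 0.37 on totals and 0.32 without miR-122, under either name and together. In Enshi black over Large White the 3p ratios were so near 1 that thinning to the smallest library turned them to −0.0025 (miR-199a-3p), −0.0015 (miR-199b-3p) and −0.0022 (together). Taking the larger 3p name in place of the sum gave 5p shares of 72.0% (Enshi black), 65.2% (Large White) and 70.5% (wild boar), in the same order as before. DESeq2 size factors changed no direction and no call of the 5 names. A 4-fold threshold could change neither, since no name was called at 2-fold after TMM.

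Counts of miRNAs past 2-fold depended on the settings. In Enshi black over Large White, 6 higher and 21 lower became 57 and 6 on totals, 37 and 8 without miR-122, 13 and 39 without a minimum, 1 and 12 at 100 CPM, and 1 and 1 at 4-fold. In wild boar over Large White, 24 higher and 28 lower became 45 and 19 on totals, 43 higher without miR-122, 38 and 47 without a minimum, 13 and 18 at 100 CPM, and 4 and 5 at 4-fold. In Enshi black over wild boar, 13 higher and 13 lower became 7 lower on totals, 21 and 29 without a minimum, 6 and 8 at 100 CPM, and 1 and 2 at 4-fold. List medians in Enshi black over Large White turned to −0.014 for smooth muscle and fibroblast at 100 CPM, and to 0.082 for leucocyte and 0.49 for red cell miRNAs on totals. Depth limits miR-214 most, whose ratios have the widest intervals among the 5 names. The spread between animals is unknown.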

Other observations

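Taken singly, the names had different nearest neighbours among the 125 other miRNAs over the 3 libraries. For miR-199a-5p it was miR-193a-5p, at a distance of 0.061, and for miR-214 it was let-7d-5p, at 0.026. For miR-199b-5p it was miR-130a, at 0.053, followed by miR-99b at 0.060 and miR-181a at 0.077. For the 3p reads it was miR-424-5p, at a distance of 0.00011. That is far below counting error, since the ratio of miR-424-5p in Enshi black over Large White had an interval of 0.983 to 1.02. The next nearest to the 3p reads was miR-1307, at 0.064. With 3 libraries and 125 candidates, how close a match can be without any link was not tested. These neighbours are a description only. Between the members themselves, miR-199a-5p and miR-214 were 0.14 apart, miR-199a-5p and miR-199b-5p 0.28, and miR-199b-5p and miR-199b-3p, which come from 1 hairpin, 0.49. The miR-199b-3p count consists almost wholly of reads divided equally over 3 precursors.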
